A study of Homo sapiens with 12 samples.

Results

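ERK pathway feedback genes are the transcripts that ERK signalling switches on and that in turn restrain or carry out its response. Taken here by name were 10 of them: the phosphatases DUSP4, DUSP5 and DUSP6, the inhibitors SPRY2, SPRY4, SPRED1 and SPRED2, the transcription factors ETV4 and ETV5, and PHLDA1. All 10 were found among the 22963 gene names of the series, and all 10 passed the filter on low values in every comparison. Their RNA was sequenced in 2 hepatocellular carcinoma cell lines in which the zinc finger transcription factor EGR1 had been manipulated, to ask what EGR1 does to gene expression in these cells. PLC/PRF5 cells carried either an empty vector or EGR1, delivered as a lentiviral pCDH expression plasmid. MHCC97H cells were either parental and wild type or labelled EGR1 knockout, made with lentiviral CRISPR/Cas9 and grown from single clones; how many clones gave RNA is not given in the sources used here. Each of the 4 groups held 3 libraries, and cells of both lines were grown in DMEM with serum. No treatment or time point separated the groups.

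In the RAS-RAF-MEK-ERK cascade, a growth factor receptor activates RAS at the membrane and the signal ends in phosphorylation of ERK, which enters the nucleus and drives transcription. ERK also induces its own brakes: DUSP phosphatases dephosphorylate the kinase, while Sprouty (SPRY) and SPRED proteins act further up, at the receptor and at RAS and RAF. Because these transcripts follow ERK output closely, their combined level is widely used as a readout of the pathway in tumours, including liver cancer. EGR1 is itself an immediate early target of the pathway and binds GC-rich DNA.

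The promoter windows of 2 Sprouty genes are shown because, of 9 windows available for 6 of the 10 genes, they were the 2 that held the EGR1 binding motif GCGNGGGCG on either strand. Each window is the 250 bases before a RefSeq transcription start (GRCh38.p14), written on the strand of the gene, with the motif matches in capitals. The SPRY2 window lies at chr13:80341127-80341376 on the minus strand, upstream of the GENCODE 29 gene, and overlaps none of its exons. Its matches lie 134 to 126 and 41 to 33 bases before the start, the second on the opposite strand. The SPRY4 window lies at chr5:142324248-142324497 on the minus strand, inside the GENCODE gene, with 170 bases in an exon of a non-coding SPRY4 transcript. Its match lies 195 to 187 bases before the start, on the opposite strand.
SPRY2: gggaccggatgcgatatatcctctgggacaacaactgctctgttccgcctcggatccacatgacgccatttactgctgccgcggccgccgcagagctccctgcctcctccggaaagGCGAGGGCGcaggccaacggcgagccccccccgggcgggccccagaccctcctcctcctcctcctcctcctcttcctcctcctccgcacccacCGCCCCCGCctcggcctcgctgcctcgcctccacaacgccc
SPRY4: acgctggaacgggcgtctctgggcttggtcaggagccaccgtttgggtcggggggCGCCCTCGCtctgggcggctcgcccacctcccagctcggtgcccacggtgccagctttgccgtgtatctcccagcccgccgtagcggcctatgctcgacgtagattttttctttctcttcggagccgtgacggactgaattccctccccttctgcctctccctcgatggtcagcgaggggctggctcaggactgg
Of 35116 RefSeq windows of the same length, 8.41% held this motif. The ETS motif CCGGAAGT, the AP-1 motif TGANTCA and the cyclic AMP response element TGACGTCA were searched on both strands in the same way. None of the 9 windows held them, against 3.42%, 6.57% and 1.65% of all windows. The other SPRY2 windows and those of SPRED1, SPRED2, DUSP6 and PHLDA1 held no match to the EGR1 motif either. The DUSP6, PHLDA1 and SPRED1 windows lay with all 250 bases in exons of coding GENCODE transcripts. The other SPRY2 windows and the SPRED2 window at chr2:65366779-65367028 lay inside the GENCODE gene. A lack of matches in these windows thus does not describe the sequence upstream of the gene. A match describes the letters of a window and does not show binding.

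The manipulated gene was checked first. EGR1 stood at 1.97, 1.43 and 2.03 FPKM (fragments scaled to transcript length and to the fragments mapped in the library) in the vector libraries of PLC/PRF5. With EGR1 overexpression it stood at 56.3, 50.2 and 52.2 FPKM, a log2 difference of 4.27 (SE 0.11). In MHCC97H it stood at 20.2, 23.1 and 21.2 FPKM in the parental libraries and at 35.2, 50.3 and 32.9 FPKM in the libraries labelled knockout. The libraries labelled knockout thus held more EGR1 mRNA than parental ones, by 0.83 on the log2 scale (SE 0.15, limma adjusted p = 0.00126). When GC content and length were corrected for, the difference was 0.42 (adjusted p = 0.0608). The paper reports that its MHCC97H knockout clones were checked by western blot and by DNA sequencing. The level of an mRNA does not show whether the protein was lost, so the label is kept with this reservation wherever a direction is given.

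Library sums ran from 376335 to 437652 FPKM, and Pearson r between replicate libraries ran from 0.993 to 0.997 across genes. The 6 hepatocyte markers summed to 265 to 326 FPKM with the vector and 551 to 570 FPKM with EGR1, and to 10.4 to 14.7 FPKM in parental and 23.7 to 27.3 FPKM in the libraries labelled knockout. Hepatocyte markers were thus low in MHCC97H, where APOA1 was under 1 FPKM in every library, and TTR was under 1 FPKM in every PLC/PRF5 library. The markers did not move together in MHCC97H. From parental to labelled knockout, mean ALB went from 0.89 to 15.2 FPKM and AFP from 0.42 to 1.48 FPKM. Mean APOB went from 1.27 to 0.15 FPKM and HNF4A from 9.64 to 7.91 FPKM. In PLC/PRF5 the sum rose mostly through APOA1 (mean 3.18 to 113 FPKM), ALB (116 to 201 FPKM) and APOB (126 to 175 FPKM). Each group held cells of a single cell line, and in bulk libraries fewer cells expressing a marker and less of its RNA per cell cannot be told apart. The epithelial markers KRT8, KRT18, EPCAM and CDH1 summed to at least 1446 FPKM in every library, although EPCAM was under 1 FPKM throughout. KRT8 and KRT18 made up nearly all of this sum, at no less than 970 and 473 FPKM. CDH1 was under 1 FPKM in every PLC/PRF5 library and stood at 2.29 to 4.11 FPKM in MHCC97H. All 4 fibroblast markers were under 1 FPKM in every library, with COL1A2 at 0 in the vector group and the group labelled knockout. The leukocyte markers PTPRC and CD3E were under 1 FPKM in every library. CD68, a marker of macrophages that other cells express too, stood at 26.3 to 29.7 FPKM in parental and 51.6 to 56.2 FPKM in the libraries labelled knockout, a log2 difference of 0.90 that was 0.39 with the correction. The endothelial markers CDH5 and VWF were under 1 FPKM throughout, and the 3 summed to at most 6.53 FPKM. The part of the hepatocyte markers and of CD68 in the results below was not tested.

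The 10 genes together summed to 247 ± 8.19 FPKM with the vector, 210 ± 4.15 with EGR1, 336 ± 4.55 in parental MHCC97H and 259 ± 9.44 in the libraries labelled knockout (mean ± SD, n = 3 each). The sum is weighted to the most abundant genes and was not tested as a measure of ERK activity. Mean ETV4 was 45.3 FPKM with EGR1 against 79.7 FPKM with the vector, while mean PHLDA1 was 40.5 against 37.7 FPKM. FPKM is a level per transcript length, so genes can be ranked within a group. ETV4 was the most abundant of the 10 in PLC/PRF5, with 79.7 ± 6.01 FPKM and 32.3% of their sum in the vector group. PHLDA1 was the most abundant in MHCC97H, with 105 ± 3.53 FPKM and 31.3% of the sum in the parental group. SPRY2 was the least abundant in MHCC97H, at 3.71 ± 0.54 FPKM in parental cells, and SPRED1 was the least abundant in PLC/PRF5, at 3.97 ± 0.50 FPKM with the vector. The levels of the 10 genes in every library are plotted by group.

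In PLC/PRF5, overexpression of EGR1 went with lower mRNA of DUSP4 and ETV4, and with no call for the other 8 genes. DUSP4 fell by 0.51 and ETV4 fell by 0.80 on the log2 scale. Thus 2 of 10 passed the test (limma, adjusted p under 0.05), both lower, where 29.6% of 11671 genes passed it, 19.2% higher and 10.4% lower. The count over all genes was 3457 and dropped to 2246 without vector replicate 3, 1919 without EGR1 replicate 2 and 2208 without EGR1 replicate 3. The libraries of both groups did not overlap for 5 of the 10, against 47.7% of all genes. The median difference was 0.06 over the 10 and 0.09 over all genes. With 3 libraries against 3, an exact permutation test of a single gene cannot go below p = 0.1. When GC content and length were corrected for, 5 of 10 passed: SPRED1 (-0.30, adjusted p = 0.0192), ETV5 (-0.28, adjusted p = 0.0254) and SPRED2 (0.24, adjusted p = 0.0383) joined them. In that fit 33.8% of 10829 genes passed, 16.4% higher and 17.4% lower.

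In MHCC97H, the libraries labelled knockout held less SPRED1, PHLDA1, DUSP5, DUSP6 and SPRY4 mRNA than parental libraries, and more ETV4 mRNA. The log2 differences ran from -0.94 for SPRED1 to 0.35 for ETV4. Thus 6 of 10 passed the test, 5 lower and 1 higher, where 66.3% of 11577 genes passed it, 31.5% lower and 34.8% higher. The 6 were also those whose libraries did not overlap, against 71.8% of all genes. A share of 6 in 10 was close to that of all genes, so the count does not set the list apart. The median was -0.27 over the 10 and 0.02 over all genes. Scaling every library to the same total shifted the median of all genes by -0.13 and moved the share of calls that were higher from 52.5% to 41.6%. In PLC/PRF5 the share of calls that were higher was 64.8%, and 46.0% after quantile normalization.

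**Figure D1:**
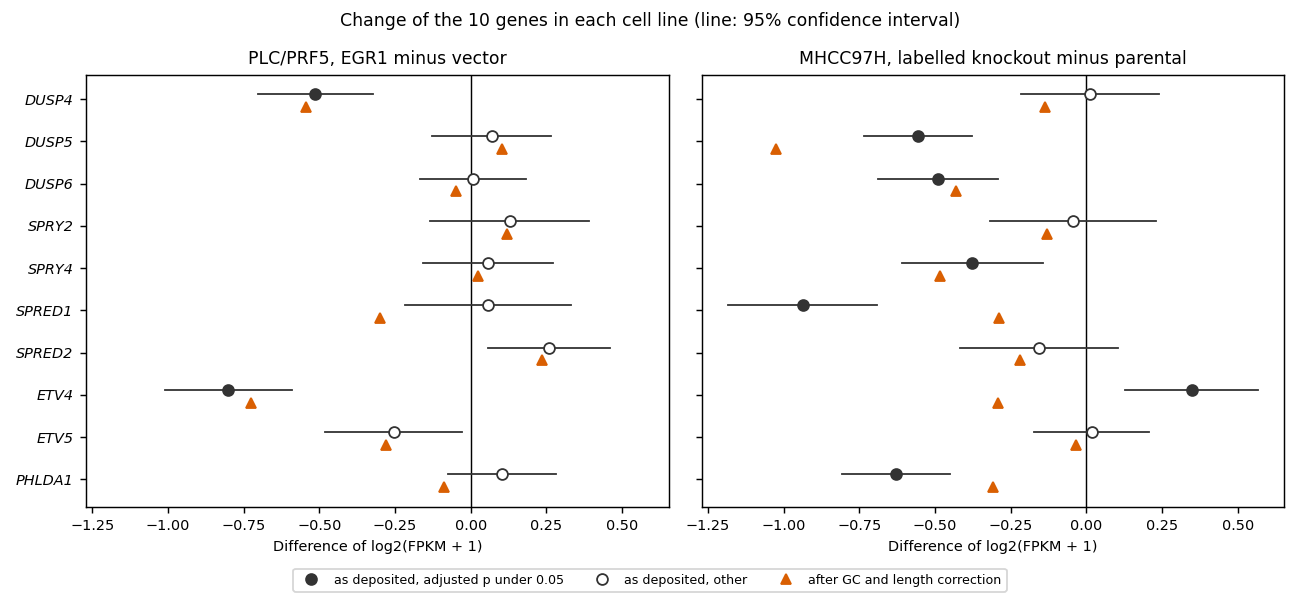
Difference of log2(FPKM + 1) for each gene (x axis) in PLC/PRF5, EGR1 minus vector, and in MHCC97H, labelled knockout minus parental; circles are the fit to the deposited values with 95% confidence intervals (n = 3 against 3), filled where the adjusted p is under 0.05, and triangles are values corrected for GC and length. In MHCC97H the correction moves SPRED1 from -0.94 to -0.29, DUSP5 from -0.56 to -1.02 and ETV4 from 0.35 to -0.29.

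Among the phosphatases, DUSP6, the cytoplasmic enzyme that acts on ERK itself, is encoded at chr12:89347232-89353271 (minus strand). Its level was 36.1, 39.1 and 37.1 FPKM with the vector and 37.1, 38.1 and 37.9 FPKM with EGR1. The groups overlapped, with a log2 difference of 0.01 (95% confidence interval -0.17 to 0.18, adjusted p = 0.943). In MHCC97H, DUSP6 stood at 45.9, 46.0 and 42.6 FPKM in parental libraries and at 31.1, 34.1 and 29.7 FPKM in those labelled knockout. Every library labelled knockout was below every parental one. DUSP6 fell by 0.49 (SE 0.09, adjusted p = 0.00125), and by 0.43 (adjusted p = 0.00158) with the GC and length correction. A gene on the opposite strand, AC024909.2, overlaps DUSP6.

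DUSP5, a nuclear phosphatase of ERK, lies at chr10:110497838-110511544 (plus strand). The vector libraries gave 15.8, 13.9 and 15.1 FPKM and the EGR1 libraries 15.3, 15.5 and 16.3 FPKM. These groups overlapped (log2 difference 0.07, 95% confidence interval -0.13 to 0.27, adjusted p = 0.563). Parental MHCC97H libraries gave 58.5, 59.8 and 56.9 FPKM against 39.5, 37.7 and 41.1 FPKM in those labelled knockout. The groups did not overlap, and DUSP5 fell by 0.56 (SE 0.08, adjusted p = 0.000383). With the GC and length correction it fell by 1.02, the largest corrected change of the 10 genes in this comparison.

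DUSP4, a nuclear phosphatase that acts on ERK and on related kinases, lies at chr8:29333064-29350668 (minus strand). Its level was 31.1, 27.4 and 29.7 FPKM with the vector and 21.1, 19.7 and 20.1 FPKM with EGR1. All EGR1 libraries lay below all vector libraries, 1.43-fold lower on the FPKM + 1 scale (SE of the log2 difference 0.08, adjusted p = 0.00337). The call held under all 15 alternatives, with differences from -0.56 to -0.47. In MHCC97H the parental libraries gave 21.2, 23.0 and 24.3 FPKM and those labelled knockout gave 25.5, 20.8 and 22.9 FPKM. They overlapped, with a difference of 0.01 (95% confidence interval -0.22 to 0.24, adjusted p = 0.921).

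Of the Sprouty genes, which encode inhibitors of receptor tyrosine kinase signalling, SPRY4 (chr5:142310427-142326455, minus strand) gave 10.7, 9.28 and 11.0 FPKM with the vector. With EGR1 it gave 11.2, 10.7 and 10.3 FPKM, and the groups overlapped (log2 difference 0.06, 95% confidence interval -0.16 to 0.27, adjusted p = 0.678). Parental MHCC97H libraries gave 5.49, 5.00 and 5.62 FPKM and those labelled knockout 4.22, 3.73 and 3.77 FPKM. The groups stood apart and SPRY4 fell by 0.38 (SE 0.10, adjusted p = 0.0102), or by 0.48 (adjusted p = 0.00132) with the correction. SPRY4-AS1 overlaps SPRY4 on the opposite strand.

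SPRY2 (chr13:80335976-80340951, minus strand) gave 3.83, 4.80 and 3.62 FPKM with the vector and 4.91, 4.20 and 4.51 FPKM with EGR1. In MHCC97H it gave 4.27, 3.21 and 3.64 FPKM in parental libraries and 3.31, 3.42 and 3.93 FPKM in those labelled knockout. Neither pair of groups stood apart. The log2 difference was 0.13 in PLC/PRF5 (95% confidence interval -0.13 to 0.39, adjusted p = 0.422) and -0.04 in MHCC97H (-0.32 to 0.23, adjusted p = 0.759).

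The SPRED proteins bring the RAS inactivator neurofibromin to the membrane. SPRED1 (chr15:38252326-38357249, plus strand) gave 3.41, 4.40 and 4.08 FPKM with the vector and 4.82, 3.82 and 3.87 FPKM with EGR1. These overlapped (log2 difference 0.06, 95% confidence interval -0.22 to 0.33, adjusted p = 0.742), and the sign was negative after quantile normalization and after the GC and length correction. Parental MHCC97H libraries gave 28.3, 26.2 and 22.9 FPKM and those labelled knockout gave 13.8, 13.4 and 11.7 FPKM. The lowest parental library was above the highest library labelled knockout. SPRED1 fell by 0.94 (SE 0.11, adjusted p = 0.000135), the largest change of the 10 genes there, and by 0.29 (adjusted p = 0.00721) with the correction.

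SPRED2 (chr2:65310851-65432637, minus strand) gave 17.0, 15.3 and 17.3 FPKM with the vector and 21.2, 19.5 and 19.2 FPKM with EGR1. The groups stood apart, but the log2 difference of 0.26 (SE 0.09) missed the threshold (adjusted p = 0.0564). In MHCC97H the parental libraries gave 17.7, 17.1 and 18.6 FPKM and those labelled knockout gave 18.9, 14.2 and 14.8 FPKM. The first library labelled knockout was above all parental ones and the other two were below them. The difference was -0.16 (95% confidence interval -0.42 to 0.11, adjusted p = 0.260), and -0.28 (adjusted p = 0.0397) without that library. AC012370.1 overlaps SPRED2 on the same strand.

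ETV4 and ETV5 encode ETS transcription factors of the PEA3 group, which act downstream of ERK. ETV4 (chr17:43527844-43579620, minus strand) gave 86.5, 75.1 and 77.6 FPKM with the vector and 43.0, 44.0 and 48.9 FPKM with EGR1. No library of one group reached the other, and ETV4 was 1.74-fold lower with EGR1 on the FPKM + 1 scale (SE of the log2 difference 0.09, adjusted p = 0.000710). The call held under all 15 alternatives, with log2 differences from -0.86 to -0.73. In MHCC97H it gave 29.1, 28.0 and 34.2 FPKM in parental libraries and 39.8, 37.0 and 39.7 FPKM in those labelled knockout. The groups did not overlap, and ETV4 rose by 0.35 (SE 0.10, adjusted p = 0.0112) on the deposited scale. That call was lost with libraries scaled to the same total (0.20, adjusted p = 0.0937), after quantile normalization (0.15, adjusted p = 0.174) and without parental replicate 2 (0.29, adjusted p = 0.0630), and the GC and length correction turned it to -0.29 (adjusted p = 0.00704). DHX8 overlaps ETV4 on the opposite strand.

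ETV5 (chr3:186046308-186110318, minus strand) gave 14.4, 11.9 and 12.6 FPKM with the vector and 10.2, 10.4 and 11.6 FPKM with EGR1. All EGR1 libraries were below all vector libraries, but the log2 difference of -0.25 (SE 0.10) missed the threshold (adjusted p = 0.0856). It passed under 5 of 15 alternatives, including without vector replicate 2 (-0.31, adjusted p = 0.0439). In MHCC97H it gave 21.1, 21.2 and 22.5 FPKM in parental libraries and 22.7, 20.8 and 22.2 FPKM in those labelled knockout. These overlapped, with a difference of 0.02 (95% confidence interval -0.17 to 0.21, adjusted p = 0.861). ETV5-AS1 and DGKG, which share the locus, overlap ETV5.

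PHLDA1 encodes a pleckstrin homology-like protein that is commonly read as an ERK output. It lies at chr12:76025447-76033932 (minus strand), where AC011611.3 and AC011611.4 overlap it on the opposite strand. The vector libraries gave 36.7, 37.9 and 38.4 FPKM and the EGR1 libraries 42.5, 39.0 and 40.1 FPKM. All EGR1 libraries were the higher, by 0.10 on the log2 scale (95% confidence interval -0.08 to 0.28), which missed the threshold (adjusted p = 0.344). In MHCC97H the parental libraries gave 109, 102 and 104 FPKM against 70.0, 64.9 and 68.0 FPKM in those labelled knockout. The groups stood far apart, and PHLDA1 fell by 0.63 (SE 0.08, adjusted p = 0.000197), or by 0.31 (adjusted p = 0.00718) with the correction.

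The differences in MHCC97H followed the base composition of the transcripts. GC content and length of the longest GENCODE transcript accounted for 52.5% of the variance of the log2 differences in MHCC97H, over 10806 genes, and for 17.9% in PLC/PRF5, over 10829 genes. The difference correlated with GC content at a Spearman's rho of 0.75 in MHCC97H and -0.44 in PLC/PRF5, across genes that are not independent replicates. Of the 10 genes, SPRED1 has the lowest GC content, 38.9%, and ETV4 the highest, 60.8%, around a median of 48.3% for the genes tested. These were also the genes with the most negative and the most positive difference in MHCC97H. DUSP5, at 55.9% GC, lay 1.02 below what the trend gave for its composition and length. With the correction, 6 of 10 genes passed in MHCC97H, all lower, where 47.5% of 10806 genes passed, 24.5% higher and 23.0% lower. They were the same 6 as on the deposited scale: SPRED1, PHLDA1, DUSP5, DUSP6, SPRY4 and ETV4. Whether the relation with GC content is technical or biological was not tested.

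The effects of both manipulations were then compared directly, as the difference labelled knockout minus parental less the difference EGR1 minus vector, over all 12 libraries. This difference passed the test for 8 of 10 genes, 2 higher and 6 lower, where 63.8% of 12090 genes passed it, 30.4% higher and 33.4% lower. Over 11248 genes, GC content and length accounted for 49.8% of its variance. Its Spearman's rho with GC content was 0.72. The difference was positive for ETV4 (1.15, SE 0.13, adjusted p = 1.78e-05) and DUSP4 (0.52, SE 0.12, adjusted p = 0.00279). Of these, ETV4 was called in opposite directions in the 2 cell lines on the deposited scale, although its call in MHCC97H depended on the scaling as given above. With the GC and length correction ETV4 was called lower in both. It stood at -0.73 in PLC/PRF5 (adjusted p = 0.000205) and -0.29 in MHCC97H (adjusted p = 0.00704). DUSP4 was called in PLC/PRF5 alone. The difference was negative for SPRED1 (-0.99), PHLDA1 (-0.73), DUSP5 (-0.63), DUSP6 (-0.50), SPRY4 (-0.43) and SPRED2 (-0.41), with adjusted p from 4.86e-05 for PHLDA1 to 0.0240 for SPRED2. The call for SPRED2 was lost without labelled knockout replicate 2 (-0.34, adjusted p = 0.0597) or 3 (-0.37, adjusted p = 0.0573), vector replicate 2 (-0.36, adjusted p = 0.0520) or EGR1 replicate 1 (-0.37, adjusted p = 0.0532). These 6 had no call in PLC/PRF5, and 5 of them, all but SPRED2, were lower in MHCC97H. With the GC and length correction the difference for SPRED1 was -0.01 (adjusted p = 0.940), that for ETV4 was 0.48 (adjusted p = 0.00117) and that for PHLDA1 was -0.23 (adjusted p = 0.0470). The PHLDA1 call was lost with the correction and the replicate block (adjusted p = 0.0563), and the SPRY4 call after quantile normalization (-0.24, adjusted p = 0.154). ETV5 (0.27, adjusted p = 0.0649) and SPRY2 (-0.17, adjusted p = 0.367) missed the threshold. However, ETV5 passed it with the GC and length correction (0.24, adjusted p = 0.0473). It also passed without vector replicate 2 (0.33, adjusted p = 0.0311) or EGR1 replicate 3 (0.33, adjusted p = 0.0431). Cell line, manipulation and single-clone origin differed together, so their parts cannot be told apart.

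The control groups of the cell lines, parental MHCC97H and vector-carrying PLC/PRF5, differed in most of these genes. Parental MHCC97H held more SPRED1 (log2 difference 2.43, SE 0.12), DUSP5 (1.90, SE 0.08), PHLDA1 (1.46, SE 0.07), ETV5 (0.70, SE 0.09) and DUSP6 (0.25, SE 0.08) than PLC/PRF5 with the vector. It held less ETV4 (-1.36, SE 0.10), SPRY4 (-0.82, SE 0.10) and DUSP4 (-0.35, SE 0.09), whose call was lost after quantile normalization (-0.21, adjusted p = 0.0670). SPRED2 (0.10, 95% confidence interval -0.10 to 0.30) and SPRY2 (-0.11, 95% confidence interval -0.40 to 0.18) did not pass. Thus 8 of 10 genes passed, 5 higher and 3 lower, where 79.8% of 12046 genes did (38.8% higher and 40.9% lower), a share close to the background. The largest adjusted p among the 8 was 0.0139, for DUSP6, and that call was lost in 6 of 15 alternatives, including without parental replicate 2 (0.23, adjusted p = 0.0645), without vector replicate 1 (0.23, adjusted p = 0.0555) and without vector replicate 3 (0.25, adjusted p = 0.0501). This comparison shares its control libraries with the other two, and cell line and experiment cannot be told apart in it.

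The order of the 4 groups differed from gene to gene. DUSP5, SPRED1 and PHLDA1 shared 1 order, with parental MHCC97H highest, then the libraries labelled knockout, then EGR1 and the vector. All neighbours in it stood apart except EGR1 and vector for DUSP5 and SPRED1. DUSP6 was highest in parental MHCC97H and lowest in the libraries labelled knockout, with both PLC/PRF5 groups between them and overlapping each other. ETV4 ran from the vector through EGR1 and the libraries labelled knockout down to parental MHCC97H, each step apart. SPRY4 was highest in the 2 PLC/PRF5 groups, which overlapped, and lowest in the libraries labelled knockout. DUSP4 was highest with the vector and lowest with EGR1, and the MHCC97H groups between them overlapped. ETV5 was highest in the 2 MHCC97H groups, which overlapped. SPRED2 was highest with EGR1, apart from the next group, and its other neighbours overlapped. For SPRY2 every pair of neighbours overlapped.

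Over the 12 libraries, the genes outside the pathway lists whose log2(FPKM + 1) was most like that of DUSP6 were TBC1D31 (Pearson r 0.981), BMPR1A (0.975) and PPP2R2A (0.961), out of 12090 genes compared. These 3 were chosen for that likeness, so a shared order of groups is no separate result. Like DUSP6, they had their highest mean in parental MHCC97H and their lowest in the libraries labelled knockout, for instance 7.61 and 3.45 FPKM for TBC1D31. The other 9 feedback genes had r from -0.28 (ETV4) to 0.36 (PHLDA1) with DUSP6. The points share their libraries and groups, so r is given as a description.

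The rest of the pathway was read from 4 lists with 74 genes in all. In PLC/PRF5, 26 of 64 tested passed, 16 higher and 10 lower, and in MHCC97H 44 of 65 passed, 19 higher and 25 lower. Of all genes, 29.6% passed in PLC/PRF5 (19.2% higher, 10.4% lower) and 66.3% in MHCC97H (34.8% higher, 31.5% lower). These shares are the background for the counts of each list below. The MHCC97H count was close to its background and does not set these genes apart. In PLC/PRF5 the count dropped to 17 without EGR1 replicate 3. The median difference was 0.10 and -0.02, against 0.09 and 0.02 over all genes. The pathway list differences are plotted for both cell lines.

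Of the receptor tyrosine kinases and their coreceptor, 8 of 11 passed in PLC/PRF5, 3 higher and 5 lower (median -0.20), and 6 of 9 in MHCC97H, 3 higher and 3 lower (median 0.23). EGFR, the epidermal growth factor receptor, rose by 0.55 with EGR1 and fell by 0.64 in the libraries labelled knockout. FGFR4, the main fibroblast growth factor receptor of hepatocytes, fell by 0.57 with EGR1 and rose by 0.82 in the libraries labelled knockout, and ERBB3 fell by 0.37 and rose by 0.36. FGFR3 rose by 0.35 with EGR1 and fell by 0.37 in the libraries labelled knockout. With the GC and length correction these 4 receptors kept their signs and calls, with FGFR4 in MHCC97H at 0.18 (adjusted p = 0.0362). The ERBB3 call in PLC/PRF5 was lost without vector replicate 1 or 3 and without EGR1 replicate 1 or 3 (-0.39 to -0.28, adjusted p from 0.0528 to 0.101), and that in MHCC97H with libraries scaled to the same total (log2 difference 0.22). The FGFR3 call in MHCC97H was lost in 6 of 15 alternatives, among them those without parental replicate 2 or 3 and without labelled knockout replicate 1 or 2 (-0.41 to -0.27, adjusted p from 0.0554 to 0.118). In PLC/PRF5 the FGFR3 call was lost without EGR1 replicate 3 (0.33, adjusted p = 0.0513). AXL fell by 0.76 in PLC/PRF5, and ERBB2 rose by 0.83 in MHCC97H, or by 0.38 with the correction. In MHCC97H, AXL had no call on the deposited scale (-0.09, adjusted p = 0.403) but was lower with the correction (-0.40, adjusted p = 0.00147).

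Of the cascade genes, from RAS and its activators to ERK and its substrates, 5 of 23 passed in PLC/PRF5, 3 higher and 2 lower (median 0.08), and 21 of 24 in MHCC97H, 9 higher and 12 lower (median -0.25). MAPK3 and MAP2K2, which encode an ERK and a MEK, fell by 0.40 and 0.47 with EGR1 and rose by 1.08 and 0.96 in the libraries labelled knockout. With the correction they still rose there, by 0.44 and 0.36. HRAS rose by 0.98 in the libraries labelled knockout, or by 0.21 (adjusted p = 0.0147) with the correction. In PLC/PRF5, HRAS had no call on the deposited scale (0.08, adjusted p = 0.568) but was higher with the correction (0.25, adjusted p = 0.0303). PTPN11, the phosphatase SHP2 that relays receptor signals to RAS, rose by 0.48 with EGR1 and fell by 0.73 in the libraries labelled knockout, with corrected values of 0.27 and -0.31. LAMTOR3, a MEK scaffold, and RPS6KA3, an ERK-activated kinase, rose by 0.76 and 0.72 with EGR1 and fell by 0.66 and 0.67 in the libraries labelled knockout. For LAMTOR3 and RPS6KA3 the MHCC97H values were -0.06 and -0.07 with the correction (adjusted p = 0.574 and 0.521). In MHCC97H the correction left 8 of the 24 cascade genes past the threshold, 6 higher and 2 lower, with a list median of 0.01. Of all genes, 47.5% passed there with the correction, 24.5% higher and 23.0% lower.

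Of the other negative regulators, 6 of 15 passed in PLC/PRF5, 3 higher and 3 lower (median -0.13), and 10 of 17 in MHCC97H, 4 higher and 6 lower (median 0.00). NF1, which encodes the neurofibromin that SPRED proteins recruit, rose by 0.32 with EGR1 (adjusted p = 0.0495) and fell by 0.90 in the libraries labelled knockout, and with the correction stood at -0.02 (adjusted p = 0.837) and -0.34 (adjusted p = 0.0103). The NF1 call in PLC/PRF5 was lost in 13 of 15 alternatives, including each of the 6 that left out 1 library (0.23 to 0.38, adjusted p from 0.0529 to 0.119). RASA1, another RAS inactivator, rose by 0.53 with EGR1 and fell by 0.60 in the libraries labelled knockout, where it missed the threshold with the correction (-0.32, adjusted p = 0.0528). The ubiquitin ligase gene CBL rose by 0.41 with EGR1 and fell by 0.49 in the libraries labelled knockout, with corrected values of 0.20 (adjusted p = 0.0806) and -0.21 (adjusted p = 0.0329). The CBL call in PLC/PRF5 was lost in 9 of 15 alternatives, including those without vector replicate 1 and without each EGR1 library (0.38 to 0.46, adjusted p from 0.0562 to 0.106). LRIG1, which restrains ERBB receptors, fell by 0.51 with EGR1 and rose by 0.80 in the libraries labelled knockout, and by 0.46 with the correction. PHLDA2, a relative of PHLDA1, fell by 0.39 with EGR1 and rose by 0.71 in the libraries labelled knockout, and with the correction stood at -0.31 (adjusted p = 0.0964) and 0.01 (adjusted p = 0.919). The PHLDA2 call in PLC/PRF5 was also lost without vector replicate 1, EGR1 replicate 2 or EGR1 replicate 3 (-0.40 to -0.30, adjusted p from 0.0601 to 0.0898). In MHCC97H, PEA15, which holds ERK in the cytoplasm, rose by 1.13, PHLDA3 rose by 0.94 and the RAS inactivator RASA2 fell by 0.99. With the correction these stood at 0.89, 0.36 and -0.31, and the RASA2 call (adjusted p = 0.0481) was lost when the replicate block was added (adjusted p = 0.0551).

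Of the other outputs of ERK, 7 of 15 passed in PLC/PRF5, all higher (median 0.24), and 7 of 15 in MHCC97H, 3 higher and 4 lower (median -0.06). The cytokine gene LIF rose by 1.33 with EGR1 and by 0.92 in the libraries labelled knockout, or by 0.47 with the correction there. The EGFR ligand genes AREG and EREG rose by 0.77 and 0.67 with EGR1, and fell by 0.52 and 1.27 in the libraries labelled knockout. With the correction these calls held, at 0.71 and 0.28 in PLC/PRF5 and at -0.51 and -0.60 in MHCC97H. JUNB and FOSL1, subunits of the AP-1 transcription factor, rose by 0.32 and 0.49 with EGR1, and by 0.65 and 0.58 in the libraries labelled knockout. The JUNB call in PLC/PRF5 was lost in 6 of 15 alternatives, among them those without vector replicate 1 or 3 and without EGR1 replicate 2 or 3 (0.26 to 0.36, adjusted p from 0.0708 to 0.138). In MHCC97H the correction left both genes at -0.10 and -0.10 (adjusted p = 0.370 and 0.313).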

How the data were processed

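RNA sequencing was analysed from 12 libraries in 4 groups of 3, which the labels call biological replicates without saying that each came from its own culture or clone. The p-values therefore measure only the spread between these libraries, which may be technical. The authors deposited 1 table of FPKM (fragment numbers divided by transcript length and by library size), covering 22963 gene names. The submitters' processing notes name StringTie and hg38, while the aligner, the annotation and whether counting used strand are not given in the sources used here. At most 1.34% of genes under 0.1 FPKM shared 1 ratio between replicate libraries, so whole reads could not be recovered. The depth is therefore unknown and no counting intervals are given. All 12 columns were used.

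Values were analysed as log2(FPKM + 1) with limma 3.58.1 in R 4.3.3 (2-sided, intensity trend) over genes with a mean of at least 1 FPKM in the libraries fitted. P-values were adjusted over all these genes by the Benjamini-Hochberg method at 0.05. Fold changes on this scale understate those of low genes. Each cell line was fitted alone, and the difference between the effects was fitted over all 12 libraries. The GC and length correction removed a spline with 5 degrees of freedom on the GC content and log length of the longest GENCODE 29 transcript, and it also removes biological change that follows these properties. It covered 19458 names (84.7%) and all 10 members. The scripts were tested on simulated data. Alternatives were another pseudocount (0.1), no filter on the mean, 2 other scalings, no trend, all libraries in one fit, a replicate block, a threshold of 0.01, and leaving out each library.

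The members and the gene lists were chosen with earlier results of these data known. All members and EGR1 are named. From each pathway list, up to 3 genes per comparison are named, those with the largest changes among genes called with separate groups, besides any gene called in both cell lines. The 3 genes outside the lists most correlated with DUSP6 are also named. Promoter windows came from RefSeq (GRCh38.p14) and covered 6 of the 10 members. Figures were drawn with matplotlib 3.10.9 in Python 3.11.15. For the leukocyte markers, 1 gene of the list is not reported here.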

Additional observations from a re-analysis of the deposited data

Results flagged for a closer look

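For the genes below, the change in MHCC97H (labelled knockout minus parental) differed from the change in PLC/PRF5 (EGR1 minus vector) by a limma interaction test with an adjusted p under 0.05. Values are the first change minus the second on the log2(FPKM + 1) scale, and a manipulation labelled as loss is here set against a gain, so a nonzero value is not in itself unusual. Of all genes, 63.8% passed the same test. Among the 10 feedback genes, 8 passed: ETV4 (1.15), DUSP4 (0.52), SPRED2 (-0.41), SPRY4 (-0.43), DUSP6 (-0.50), DUSP5 (-0.63), PHLDA1 (-0.73) and SPRED1 (-0.99). EGR1 itself gave -3.44.

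Of the 25 other pathway genes named, 22 passed. These 25 were named for their changes in these same libraries, so their count cannot be set against the share of all genes. Of all 68 other pathway genes tested, 49 passed. Among receptors the values were 1.39 for FGFR4, 0.91 for ERBB2, 0.73 for ERBB3, 0.67 for AXL, -0.73 for FGFR3 and -1.19 for EGFR. Among cascade genes they were 1.48 for MAPK3, 1.43 for MAP2K2, 0.89 for HRAS, -1.22 for PTPN11, -1.38 for RPS6KA3 and -1.41 for LAMTOR3. Other negative regulators gave 1.31 for LRIG1, 1.10 for PHLDA2, 0.94 for PEA15, -0.90 for CBL, -1.13 for RASA1, -1.22 for NF1 and -1.42 for RASA2. Other outputs gave -0.41 for LIF, -1.29 for AREG and -1.94 for EREG. On this deposited scale the difference followed GC content over all genes (Spearman's rho 0.72). With the GC and length correction most of these values were smaller in size. Examples were 0.80 for MAPK3, 0.69 for FGFR4, -0.48 for RPS6KA3 and -0.34 for NF1. Those of FGFR3 (-1.34) and LIF (-0.86) were larger in size. With the GC and length correction, SPRED1 (-0.01, adjusted p = 0.940), HRAS (0.03, adjusted p = 0.782), RASA2 (-0.38, adjusted p = 0.0643) and PHLDA2 (0.37, adjusted p = 0.0802) no longer passed, and after quantile normalization LIF did not (-0.15, adjusted p = 0.312). In the other direction, JUNB (-0.52, adjusted p = 0.00199), FOSL1 (-0.63, adjusted p = 0.000421) and ETV5 (0.24, adjusted p = 0.0473) passed with the correction and not on the deposited scale. With groups of 3 libraries, no search for single outlying libraries was made.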

How the results depend on the processing

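Across the alternatives, 590 of 650 recomputed values of the 10 genes kept both sign and call, 10 newly passed the threshold, 18 no longer passed it and 32 changed sign. In PLC/PRF5 the number of feedback genes called was 2, but 5 with the GC and length correction and 4 with that correction and the replicate block. The count over all genes there was 3457, from 1919 to 4007 when 1 library was left out (2246 without vector replicate 3, 1919 without EGR1 replicate 2, 2208 without EGR1 replicate 3), and 1468 at an adjusted p under 0.01. The count of other pathway genes was 26, from 17 to 28 with 1 library left out, and 14 at an adjusted p under 0.01. Counts in the other comparisons stayed within 1.5 times. Sign changes in PLC/PRF5 with quantile normalization gave DUSP5 -0.020, DUSP6 -0.00028, SPRY2 -0.035, SPRY4 -0.062 and SPRED1 -0.11, and scaling to the same total gave DUSP6 -0.020. With the GC and length correction, with or without the block, they gave DUSP6 -0.048, SPRED1 -0.30, PHLDA1 -0.088 and NF1 -0.023. With 1 library left out, DUSP6 ran from -0.017 to 0.039, SPRY4 from -0.011 to 0.098 and SPRED1 from -0.031 to 0.12, none of them called. In MHCC97H, scaling to the same total gave DUSP4 -0.13 and ETV5 -0.13, and quantile normalization gave DUSP4 -0.13, ETV5 -0.11 and SPRY2 0.060. The correction, with or without the block, gave DUSP4 -0.14, ETV4 -0.29, ETV5 -0.034, JUNB -0.10 and FOSL1 -0.10. With 1 library left out, DUSP4 ran from -0.059 to 0.080, SPRY2 from -0.12 to 0.041 and ETV5 from -0.0090 to 0.054, none of them called. For SPRY2, quantile normalization turned the difference between the effects to 0.097. The cause of these changes was not tested. Of the values that changed sign, SPRED1 in PLC/PRF5 and ETV4 in MHCC97H, both with the correction, passed the threshold in the new direction. Replicate numbers showed no clear pairing: same-number correlations of deviations were -0.13, 0.14 and -0.076 in PLC/PRF5 and 0.032, 0.030 and 0.47 in MHCC97H. Different-number correlations ran from -0.17 to 0.21 in PLC/PRF5 and from -0.41 to 0.38 in MHCC97H. With 3 libraries a group, these values cannot settle whether libraries were paired. The replicate block gave 2 and 6 feedback genes called in these cell lines, 7 between the cell lines and 8 for the difference between the effects, and 3253 and 7987 genes in all. Depth is unknown from FPKM, so the precision of low genes such as SPRY2 rests on 3 libraries a group.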
